A study of Homo sapiens with 3 samples.

Results

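ABHD2 and PLPP1 encode lipid-cleaving enzymes, and both genes carry very long runs of H3K27ac in the LNCaP line. LNCaP cells grow in response to androgen and were established from a lymph node metastasis of human prostate cancer. The members are all called regions of H3K27ac and of H3K4me1 that touch 1 of 2 windows of hg19. These windows are chromosome 15 from 89.58 to 89.8 Mb, which holds ABHD2 on the plus strand, and chromosome 5 from 54.68 to 54.87 Mb, which holds PLPP1 on the minus strand. They contained 121 of the 271889 regions deposited outside the mitochondrial sequence: 41 of 71077 for H3K27ac and 80 of 200812 for H3K4me1. ABHD2 had 13 H3K27ac and 32 H3K4me1 regions, and PLPP1 had 28 and 48. The genes were chosen by the length of their H3K27ac runs in these lists, so the H3K27ac lengths below are a description of that choice. Gene bounds, 89.631 to 89.746 Mb for ABHD2 and 54.721 to 54.831 Mb for PLPP1, are rounded to 1 kb.

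The series design names 3 prostate lines, of which LNCaP alone was analysed here. LNCaP cells were crosslinked with formaldehyde, and chromatin was immunoprecipitated with an antibody against H3K27ac or against H3K4me1. An input library without antibody was not analysed here. Each mark had 1 library and 1 list of regions, so there was no replicate spread, no test was possible and no p-value was computed. The lists hold no read counts. The depth is therefore unknown, and the mark may still be present outside the listed regions. They hold no expression either, so neither the identity of the line nor the transcription of the 2 genes was checked.

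ABHD2 is a serine hydrolase of the alpha/beta fold that cleaves acylglycerols, among them an endocannabinoid of sperm in which it responds to progesterone. PLPP1, formerly PPAP2A, is a membrane phosphatase that removes phosphate from phosphatidic acid, lysophosphatidic acid and sphingosine phosphate. Both genes are known to respond to androgen in prostate cancer cells. H3K27ac is found at active enhancers and promoters. H3K4me1 is typical of enhancers whether active or only primed, and usually gives way to trimethylation right at active start sites.

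RefSeq lists 2 start sites for ABHD2 in its GRCh38.p14 table, and the bases before each are shown because the long H3K27ac run begins at the start of the hg19 bounds. In that assembly the second start lies 47.5 kb downstream of the first. From the second start to the gene end is 113.9 kb, close to the 115 kb between the hg19 bounds used here, whereas from the first it is 161 kb. Neither start was placed on hg19, so matching the second start to the bounds used rests on this likeness of lengths. The 250 bases before each start, on the plus strand of GRCh38.p14, are chr15:89040748-89040997 and chr15:89088206-89088455. Capitals mark matches to CCAAT or GGGCGG on either strand.
ABHD2 start 1: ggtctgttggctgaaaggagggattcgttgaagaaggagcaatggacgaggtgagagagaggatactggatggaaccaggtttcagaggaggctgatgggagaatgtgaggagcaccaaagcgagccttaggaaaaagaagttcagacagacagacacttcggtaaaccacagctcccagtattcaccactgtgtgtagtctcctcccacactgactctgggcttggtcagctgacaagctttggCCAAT
ABHD2 start 2: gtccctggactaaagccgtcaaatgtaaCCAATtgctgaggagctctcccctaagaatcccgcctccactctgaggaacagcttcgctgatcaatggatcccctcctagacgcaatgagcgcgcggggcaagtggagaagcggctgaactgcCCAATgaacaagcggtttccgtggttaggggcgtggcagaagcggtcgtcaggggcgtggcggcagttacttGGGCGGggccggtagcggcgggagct

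The promoter of start 2 was the richer in CG dinucleotides, with 19 against 4 before start 1 and a median of 11 over the 35116 promoters of the table. It held 1 match to the GC box GGGCGG, which 42.6% of all promoters hold over the same length, and 2 matches to CCAAT, held by 32.0%. Start 1 had 1 CCAAT match and no GC box. Neither held the 6-base androgen element AGAACA (12.4% of promoters), the full androgen response element, 2 inverted copies of AGAACA with 3 bases between them (1 of 35116), the forkhead motif TGTTTAC (2.98%) or TATAAA (10.7%). All motifs were searched on both strands, and a match is a description of letters. Of 32 related genes (lipid phosphate phosphatases, lipins, the ABHD family and acylglycerol lipases), 26 had 36 promoters in the table. GGGCGG was found in 25 of these, CCAAT in 8, AGAACA in 2, TGTTTAC in 1, and the full androgen element and TATAAA in 0. The marks over these related genes were not analysed here.

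The gene starts below are those of the bounds used, and the first RefSeq start of ABHD2 was not used. Both genes were acetylated from just before the start of these bounds, in 1 unbroken H3K27ac region that was the widest of its locus. At ABHD2 this region was chr15:89630151-89698050, which is 67.9 kb wide, began 0.85 kb upstream of the gene start and reached 67.05 kb into the gene. At PLPP1 it was chr5:54791751-54833350, which is 41.6 kb wide, began 2.35 kb upstream of the start and reached 39.25 kb into the gene. Both carried 0.001, the lowest value of the authors' score in that list, as did most H3K27ac regions of 10 kb or more. They ranked 5 and 14 by width among all H3K27ac regions.

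The start of each gene lay inside an H3K4me1 region too. At ABHD2 this was chr15:89630001-89635500, 5.5 kb wide, and at PLPP1 it was chr5:54827651-54832150, 4.5 kb wide. No break in H3K4me1 was called over either start as bounded, but the bounds are rounded to 1 kb. At PLPP1 the nearest break, chr5:54832151-54832650, was 500 bp wide and wholly acetylated, 1.15 to 1.65 kb upstream of the start. At ABHD2 the H3K4me1 region began 1 kb upstream of the start. In the first 5 kb of the gene H3K4me1 covered 99% at ABHD2 and 92% at PLPP1, beside 100% for H3K27ac in both.

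**Figure D1:**
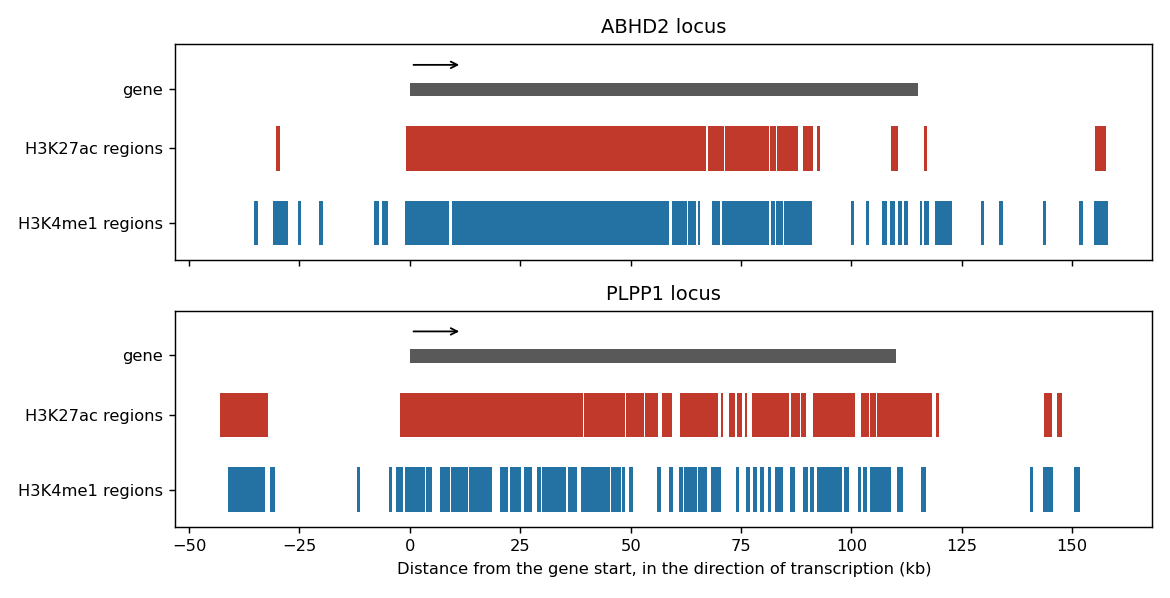
Called H3K27ac regions (red) and H3K4me1 regions (blue) at ABHD2 and PLPP1, by distance in kb from the gene start in the direction of transcription; the grey bar is the gene and the arrow its direction. The widest H3K27ac region, 67.9 kb at ABHD2 and 41.6 kb at PLPP1, covers the start of each gene as bounded here, and H3K4me1 is in many more pieces at PLPP1.

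The loci differed in how much of the acetylated chromatin also carried H3K4me1. Within the windows, H3K27ac covered 96.5 kb at ABHD2, of which 89.65 kb (92.9%) lay inside H3K4me1 regions. At PLPP1 it covered 119.4 kb, of which 80.65 kb (67.5%) did. Over the whole H3K27ac list that share was 71.5%, so ABHD2 lay above it and PLPP1 a little below. H3K27ac without H3K4me1 came to 6.85 kb at ABHD2 and 38.75 kb at PLPP1. Conversely, H3K4me1 without H3K27ac came to 22 kb at ABHD2 and 10.3 kb at PLPP1. The ABHD2 share was the higher under every setting tried, by 20.8 to 27.1 percentage points.

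Counted by region, most H3K27ac regions of each locus met H3K4me1. At ABHD2, 12 of 13 H3K27ac regions (92.3%, exact Clopper-Pearson 95% interval 64.0% to 99.8%) met H3K4me1 by at least 1 bp. At PLPP1, 23 of 28 (82.1%, 63.1% to 93.9%) did, beside 83.1% in the whole list. The intervals cover counting error alone and treat neighbouring regions as independent, although many are pieces of the same run. No verdict on the distance of either share to the list is therefore drawn from them. With H3K4me1 over 50% or more of the region as the criterion, 11 of 13 regions (84.6%) qualified at ABHD2 and 16 of 28 (57.1%) at PLPP1, on either side of the 70.8% of the list.

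H3K4me1 regions showed the opposite order over the windows. At ABHD2, 16 of 32 (50%, interval 31.9% to 68.1%) met H3K27ac, and at PLPP1 43 of 48 (89.6%, 77.3% to 96.5%), beside 34.5% of the whole list. By length, 80.3% of H3K4me1 at ABHD2 and 88.7% at PLPP1 lay inside H3K27ac over the windows. Within the gene bounds these shares were alike, at 93.3% and 92.8%. The choice of loci with long H3K27ac runs raises these shares, so nothing is read from their distance to the list. The 16 ABHD2 regions without H3K27ac lay upstream of the gene bounds used (5), in the 3′ part of the gene (5) and downstream (6). They were 0.55 to 3.9 kb wide, and the widest, chr15:89749851-89753750, began 3.85 kb past the gene end. Of the 5 such PLPP1 regions, 3 lay upstream, 1 inside the gene and 1 downstream, and none was wider than 1 kb.

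Over the gene bodies, H3K27ac covered 91.5 kb of the 115 kb of ABHD2 (79.6%) and 98.25 kb of the 110 kb of PLPP1 (89.3%). This order turned when only regions with scores at or below the list median were kept, with values of 74.3% and 69.2%. Low scores were assumed to be the more stringent, which no source used here states. H3K4me1 covered 90.75 kb (78.9%) of ABHD2 and 73.55 kb (66.9%) of PLPP1, and kept that order under the 3 settings tried. Neither mark was called over 15.1% of ABHD2 and 5.86% of PLPP1.

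Within the 115 kb bounds of ABHD2 the marks filled the 5′ side and ended together well before the gene end. With the gene divided into 10 bins of 11.5 kb from start to end, H3K27ac covered 100% of bins 1 to 5, 96.5% of bin 6, 98.7% of bin 7 and 80% of bin 8. It covered 6.09% of bin 9 and 14.3% of bin 10. H3K4me1 followed with 93.9% in bin 1, 100% in bins 2 to 4, 98.7% in bin 5 and 69.6% in bin 6. It then covered 96.1% of bin 7 and 85.7% of bin 8, 6.96% of bin 9 and 38.3% of bin 10. The longest stretch of the gene without H3K27ac, chr15:89723851-89739950, was 16.1 kb and ran from 92.85 to 108.95 kb from the start. In the last bin H3K4me1 exceeded H3K27ac, at 4.4 against 1.65 kb.

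Along PLPP1 acetylation ran the whole length of the gene and past its end. In 10 bins of 11 kb, H3K27ac covered 100% of bins 1 to 3, 99.1% of bin 4 and 94.5% of bin 5. The lowest cover was 67.3% in bin 7, and bins 8 to 10 had 91.4%, 82.3% and 83.2%. The longest stretch of the gene without H3K27ac, chr5:54769851-54771550, was 1.7 kb. H3K4me1 covered 79.5%, 81.4%, 77.3% and 89.1% of bins 1 to 4. It covered 47.3% in bin 5, 61.4% in bin 6, 44.5% in bin 7 and 50.5% in bin 8, then 76.8% in bin 9 and 60.9% in bin 10. H3K27ac covered more than H3K4me1 in each of the 10 bins.

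**Figure D2:**
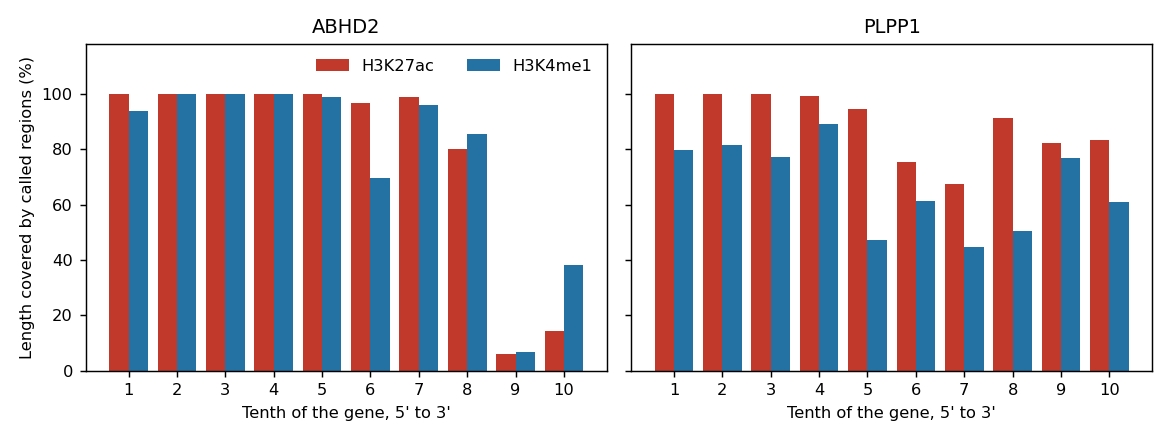
Share of length (%) covered by called H3K27ac (red) and H3K4me1 (blue) regions in 10 bins of equal length from the 5′ to the 3′ end of the bounds used for ABHD2 and PLPP1, 1 library per mark and no error bars. At ABHD2 both marks stay above 69% to bin 8 and are below 7% in bin 9; at PLPP1 H3K27ac stays above 67% throughout and H3K4me1 is the lower in each bin.

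Within the bounds used, both marks lay more toward the 5′ side, and more so at ABHD2. The ABHD2 values hold for the 115 kb bounds. Exact shares along the 161 kb gene from the first RefSeq start were not computed. With the second start placed at the bounds used, the first lies 47.5 kb upstream. The upstream flank was only 3.63% acetylated, and H3K4me1 covered 17.9% of it. The midpoint of the longer gene would fall nearer the start of the bounds used. Most of either mark at ABHD2 would then lie 3′ of the midpoint, and the order of the genes would turn. The 5′ excess at ABHD2 therefore depends on the start used. At ABHD2, 62.8% of the acetylated length in the gene and 62.4% of the H3K4me1 length lay 5′ of the gene midpoint. At PLPP1 the values were 55.3% and 56.0%. The share of H3K27ac inside H3K4me1 was also the higher on the 5′ side: 98.5% against 82.4% beyond the midpoint at ABHD2, and 75.3% against 62.2% at PLPP1. ABHD2 exceeded PLPP1 on each side.

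The difference between the genes was present where both were fully acetylated. Over the first 39.25 kb of each gene, which a single H3K27ac region covered in both, H3K4me1 covered 38.55 kb at ABHD2 (98.2%) and 31.4 kb at PLPP1 (80%). Thus 0.7 kb of this stretch lacked H3K4me1 at ABHD2 and 7.85 kb at PLPP1. In the gene beyond the region over the start, the share of H3K27ac inside H3K4me1 was 84.5% at ABHD2 and 62.5% at PLPP1.

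Inside the gene, H3K4me1 was in longer pieces at ABHD2. The 18 regions in or over ABHD2 had a median width of 1850 bp, 3 of them were 10 kb or more, and the widest, chr15:89640551-89678050, reached 37.5 kb. It ranked 3 by width in the whole H3K4me1 list and lay wholly inside H3K27ac. The 38 regions in or over PLPP1 had a median width of 1125 bp and the widest, chr5:54795551-54801100, was 5.55 kb. The widest H3K4me1 region of the PLPP1 window lay outside the gene, at chr5:54863751-54872300, with 8.55 kb. Over the whole windows the medians were 1100 bp at ABHD2 and 1175 bp at PLPP1, so the order of the medians holds for the genes and not for the windows. The H3K27ac region over the start was overlapped by 7 H3K4me1 regions at ABHD2, or 1.03 per 10 kb, and 13 at PLPP1, or 3.13 per 10 kb, against a median of 2.06 in all 444 H3K27ac regions of 10 kb or more.

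Acetylated chromatin without H3K4me1 lay in few short stretches at ABHD2 and in many at PLPP1. At ABHD2 there were 15 stretches, all inside the gene, with a median of 400 bp, and 1 reached 1 kb. The 3 longest were chr15:89696751-89698050 (1.3 kb), chr15:89698451-89699350 (0.9 kb) and chr15:89740801-89741600 (0.8 kb). The first 2 lie on either side of the end of the long H3K27ac region. At PLPP1 there were 50 stretches with a median of 600 bp, of which 15 reached 1 kb. The 3 longest were chr5:54715351-54719300 (3.95 kb), just past the gene end, chr5:54775051-54777800 (2.75 kb), near the middle of the gene, and chr5:54810601-54812300 (1.7 kb), inside the region over the start. Per 10 kb of gene, 1.30 stretches lay wholly in ABHD2 and 3.82 in PLPP1.

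**Figure D3:**
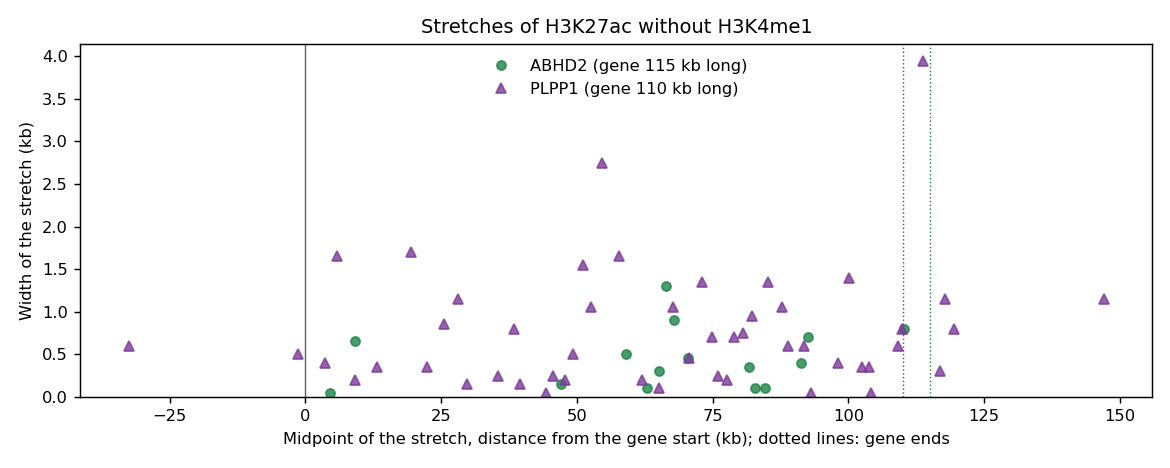
Each point is a stretch of H3K27ac outside H3K4me1 regions, by the distance of its midpoint from the gene start (kb) and its width (kb), with 15 stretches at ABHD2 (green circles) and 50 at PLPP1 (purple triangles). Most ABHD2 points lie beyond 45 kb and under 1 kb, while PLPP1 points occur all along the gene and on both sides of it, the widest being 3.95 kb.

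Most breaks in H3K4me1 held some H3K27ac, but breaks in either mark held less of the other mark than the gene as a whole. Of the 37 breaks in H3K4me1 that lay between H3K4me1 regions of PLPP1, 35 held some H3K27ac and 24 were wholly acetylated, so that 81.9% of their 35.3 kb was acetylated, against 89.3% of the gene. At ABHD2, 13 of 17 such breaks held H3K27ac and 9 were wholly acetylated. By length 31.1% of their 22 kb was acetylated, against 79.6% of the gene, as 4 breaks over 1 kb made up 17.3 kb of it and were acetylated over 19.1%. Among breaks of 1 kb or less, 75.5% of the length was acetylated at ABHD2 and 86.0% at PLPP1. In the other direction, H3K4me1 covered 22.8% of the 19.1 kb of breaks in H3K27ac at ABHD2 and 45.1% of the 11.75 kb at PLPP1, against 78.9% and 66.9% of the genes.

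Behind the region over the start, the pieces of H3K27ac differed in size and score. ABHD2 had 9 further regions inside the gene, from 0.55 to 10 kb wide. The 10 kb region, chr15:89702301-89712300, lay wholly inside H3K4me1 and had the score 0.001, and the other 8 had scores from 0.009 to 0.032. The single ABHD2 region that met no H3K4me1 was 0.7 kb wide and lay at 92.15 to 92.85 kb from the start. PLPP1 had 21 further regions inside the gene, from 0.55 to 8.15 kb wide, and 1 of 7.6 kb over the gene end. The 8.15 kb region, chr5:54730151-54738300, was the only one of these with the score 0.001, and H3K4me1 covered 77.3% of it. Of the 5 PLPP1 regions without H3K4me1, 2 lay inside the gene (1.05 and 1.35 kb) and 3 downstream (0.8, 1.15 and 1.15 kb).

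In steps of 5 kb, the lowest H3K4me1 cover inside PLPP1 was near the middle of the gene. From 50 to 55 kb behind the start, H3K27ac covered 97% and H3K4me1 9%. A 2.95 kb H3K27ac region there, chr5:54774851-54777800, lay inside H3K4me1 over 6.78% of its length, and the 1.05 kb region next to it over 0%. At the same distance in ABHD2 both marks covered 100%. In the first 90 kb of ABHD2, the lowest H3K4me1 cover of a 5 kb step was 44%, at 65 to 70 kb, where H3K27ac covered 92%. From 90 to 95 kb, where the run ended, H3K4me1 covered 20% and H3K27ac 40%.

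The flanks held less of either mark. Upstream of ABHD2, 1.85 of 51 kb carried H3K27ac and 9.15 kb H3K4me1, and downstream 3.15 and 11.75 of 54 kb. Every acetylated base of these flanks lay inside H3K4me1. If the second RefSeq start lies at the bounds used, the first lies 47.5 kb upstream of it. Most of the 51 kb upstream flank of ABHD2 would then lie inside the 161 kb gene that begins there. A stretch of 28.5 kb without H3K27ac separated the long region from the next one upstream. Upstream of PLPP1, 9.2 of 39 kb carried H3K27ac. Of this, 2.35 kb belonged to the region over the start. The rest lay in a region of 10.95 kb, chr5:54863151-54874100, which had the score 0.001, was covered by H3K4me1 over 87.2% and was separated from the gene's run by 29.8 kb without H3K27ac. This region crosses the edge of the window, and lengths within the window count 6.85 kb of it.

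Downstream of PLPP1 the acetylated run went on past the gene end. The region over the end, chr5:54713901-54721500, reached 7.1 kb beyond it and lay inside H3K4me1 over 33.6%. Of the 11.95 kb acetylated in the 41 kb downstream, 36.0% lay inside H3K4me1, against 69.5% in the gene. In GRCh38.p14 MTREX, an RNA helicase gene, overlaps the PLPP1 gene and SLC38A9 is its next protein-coding neighbour on the side of higher coordinates, from which PLPP1 is read. LOC124903573, also listed as protein-coding, overlaps ABHD2, while MFGE8 precedes ABHD2 and RLBP1 and FANCI follow it. The marks near the gene ends therefore cannot be assigned to 1 gene.

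At the edges of the windows, 3 regions crossed from inside to outside: the 10.95 kb H3K27ac region upstream of PLPP1, its 8.55 kb H3K4me1 region, and an H3K4me1 region of 1.3 kb at the lower PLPP1 edge. For H3K27ac, the first region outside lay 131 kb below and 0.2 kb above the ABHD2 window, and 0.3 kb below and 18.3 kb above the PLPP1 window. These regions outside were 0.95, 1.15, 0.9 and 1.65 kb wide. Regions inside lay 20.65 and 11.35 kb from the ABHD2 edges and 3.4 kb from the lower PLPP1 edge. For H3K4me1 the nearest regions outside were 0.7 to 1 kb wide and lay 4.5 and 32.25 kb from the ABHD2 window and 15.45 and 2.9 kb from the PLPP1 window.

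Among long acetylated domains, both genes were filled above the median but took different places by H3K4me1. Joining H3K27ac regions across gaps up to the distance commonly used to stitch super-enhancers gave a cluster of 9 regions at ABHD2, chr15:89630151-89723850, in which H3K27ac covered 90.7 kb or 96.8% of the span. At PLPP1 the cluster held 25 regions, chr5:54711101-54833350, covering 109.65 kb or 89.7%. A joining distance of 5 kb gave the same covered lengths. They ranked 21 and 15 by covered length among 37027 clusters. Among the 85 clusters with 50 kb or more of H3K27ac, a limit chosen after the data were seen, the median filling was 62.1%. None of them exceeded ABHD2, and 4 exceeded PLPP1. The genes were chosen for long H3K27ac runs. Nothing is therefore read from these ranks, from the filling or from the single-region shares below.

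In the ABHD2 cluster 93.3% of the H3K27ac length lay inside H3K4me1, more than in 73 of the other 84 clusters. In the PLPP1 cluster it was 66.3%, more than in 31 of them, and the median of all 85 was 73.2% with a range of 22.4% to 99.6%. A single region made up 74.9% of the ABHD2 cluster and 37.9% of the PLPP1 cluster, against a median of 24.0%. The clusters next to them in rank were less filled. The next longer and shorter than ABHD2, chr5:79423601-79603650 and chr3:71051201-71214250, were filled to 50.5% and 55.5%, with 89.4% and 60.1% of the acetylated length inside H3K4me1. Those next to PLPP1, chr3:176752351-176931500 and chr16:89365701-89576650, were filled to 64.2% and 51.2%, with 61.9% and 96.0%.

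**Figure D4:**
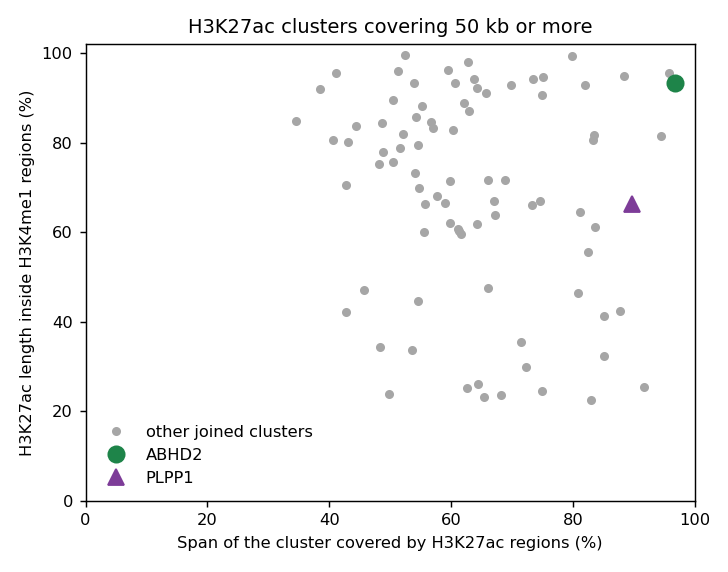
The 85 joined H3K27ac clusters that cover 50 kb or more, by the share of the span covered by H3K27ac regions (%) and the share of that H3K27ac length inside H3K4me1 regions (%); 1 point per cluster. ABHD2 (green) sits at 96.8% and 93.3%, PLPP1 (purple) at 89.7% and 66.3%, and the other clusters are grey.

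Single regions gave the same order. Among the 444 H3K27ac regions of 10 kb or more, the median share inside H3K4me1 was 87.8% (quartiles 66.0% and 97.1%). The region over the ABHD2 start, at 95.5%, exceeded 308 of the others, and the region over the PLPP1 start, at 79.9%, exceeded 176. Both shares lay between the quartiles of these wide regions.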

How the data were processed

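ChIP-seq of H3K27ac and H3K4me1 in LNCaP was read from 1 deposited region list per mark. Per the labels' protocols, chromatin was sonicated to fragments mostly of 200 to 600 bp and sequenced as single-end reads of 50 bp. Alignment tool Bowtie 0.12.8 and build hg19 are named, per the submitters' processing notes. How regions were called, at what threshold and whether against the input is not given in the sources used here. A score per region was deposited by the authors, a value without a name from 0.001 to 0.048 (H3K27ac) and 0.001 to 0.093 (H3K4me1), and served to filter and describe regions within a list, with low taken as the more stringent by assumption. All bounds fall on a grid of 50 bp.

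Windows and gene bounds were those of the rule that chose the genes. Members, lists and comparisons were chosen with earlier results of these data known. Named were both genes, and in each locus the widest regions, those over the start, the 3 longest stretches of H3K27ac without H3K4me1, the longest gap in H3K27ac, the regions at the window edges, and the clusters of neighbouring rank; other regions named were chosen after their values were seen. Lengths were summed on the grid and clipped to the window. Starts were read as 0-based and are printed counted from 1. Region overlap meant at least 1 bp. The interval code was tested on simulated data. No reference of hg19 was used, and of the 2 genes the promoter table held ABHD2. Software was matplotlib 3.10.9, scipy 1.17.1, pandas 2.3.3, numpy 2.4.6 and Python 3.11.15.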

Additional observations from a re-analysis of the deposited data

How the results depend on the processing

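The alternatives were scores at or below the list median, H3K4me1 scores under 0.05, merging within 1 kb, gene or cluster bounds in place of the window, bounds widened by 5 kb, a 50% overlap and a joining distance of 5 kb. Of 44 values, 27 stayed and 17 moved. A share of length moved when it left the exact 95% interval over steps of 50 bp, which are not independent, and a count or length when it changed over 1.5-fold. By this rule a fall from 23 to 16 of 28 PLPP1 H3K27ac regions meeting H3K4me1, at the 50% overlap, was counted among those that stayed. At scores up to the median, the H3K4me1 share of H3K27ac length was 94.3% at ABHD2 and 69.5% at PLPP1. H3K27ac then covered 74.3% and 69.2% of the genes, the order of which turned, and H3K4me1 covered 75.1% and 59.2%. The part 5′ of the midpoint of the bounds used held 67.3% and 60.8% of H3K27ac and 65.6% and 59.4% of H3K4me1. With H3K4me1 scores under 0.05 the ABHD2 share of H3K27ac length was 91.6%. Merging gave 95.5% and 74.7% for that share, 83% and 76.6% of gene length in H3K4me1, and 93.4% of PLPP1 in H3K27ac. Within gene bounds the PLPP1 share was 69.5%. No paired analysis was possible because there is only 1 library of either mark. Marks over related genes were not run. Depth is unknown, so weakly marked stretches may be missing from either list.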
